A study of Mus musculus with 4 samples.

Results

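Chemokine transcripts of mouse embryonic fibroblasts (MEFs) were followed over 4 whole-genome arrays. The genes were Cxcl1, Cxcl5, Cxcl9, Cxcl10, Cxcl12, Ccl2, Ccl5, Ccl7, Ccl8 and Ccl11, each taken by its exact symbol in the probe table. Of these 10 genes, 8 had probes, 15 among the 45281 probes of the array, and all 8 were among the 12616 genes analysed. Cxcl5 and Ccl8 had no row under these symbols and are not analysed here. The set was put together with measured values in view: Cxcl10 for its low level in MEFs treated with TAT-Cre, and Ccl11 for its higher level when the phospho-mutant rather than the wild-type Rb was put back. The set was thus selected on these arrays' own values, the Cxcl10 ratio to parental and the Ccl11 ratio between the rescued cultures. Both of these differences are therefore given as descriptions.

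All 4 cultures were MEFs of mixed background (FVB;129) from mice with floxed Rb alleles (Rb f/f), and each gave 1 array. Parental MEFs (No Cre) received a solution without TAT-Cre and then plain medium, so that their Rb was unaltered. Rb-deleted MEFs (Cre) received TAT-Cre, a Cre recombinase that enters cells, and plain medium. Cre + WT MEFs received TAT-Cre and a retrovirus carrying wild-type Rb (WT Rb-HA). Cre + dCDK MEFs received TAT-Cre and a retrovirus carrying phospho-mutant Rb (ΔCdk Rb-HA), which cyclin-dependent kinases cannot phosphorylate. TAT-Cre, virus or their controls were given in 2 rounds of 1 hr, separated by 3 hr. Doxorubicin, a topoisomerase II inhibitor that damages DNA, was present in all cultures at 100 ng/ml for 3 hr, after a 4 hr release from contact inhibition. This last step is described in the paper and does not appear in the labels. Parental MEFs were the only culture without TAT-Cre, so TAT-Cre exposure, loss of Rb and the particular culture cannot be told apart.

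Chemokines are small secreted proteins that draw leukocytes through G protein-coupled receptors on the leukocyte surface. They fall into CC and CXC families by the spacing of their first cysteines, and fibroblasts release many of them when interferons, tumor necrosis factor or interleukins reach the cell. Transcription of Cxcl9 and Cxcl10 follows interferon signalling through the interferon regulatory factors, that of Cxcl1, Ccl2, Ccl5 and Ccl7 is classically driven by NF-kB, and that of Ccl11 is best known to follow interleukin-4 and interleukin-13 through Stat6. Cxcl12 is made constitutively by stromal cells.

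Each probe's deposited intensity is its mean brightness over many beads, and a probe counts as detected where its detection p-value, set against negative control beads, is below 0.01. Mean intensity lay between 336 and 346, and between 15950 and 16740 probes were detected per array. The targeted gene was read by its Rb1 probe at transcript position 4421, with intensities of 543 in parental, 160 in Rb-deleted, 181 in Cre + WT and 170 in Cre + dCDK MEFs. A further Rb1 probe at position 4002 gave 108, 56.7, 51.1 and 52.9. Both probes were dimmer on every TAT-Cre array, including those with ectopic Rb, and whether they lie in the deleted part or are carried by the virus was not given in the sources used here. By immunoblot, the paper reports ectopic Rb protein at physiologic levels in both rescued cultures. The dim Rb1 probes are therefore not read as a missing rescue. The 11 fibroblast markers (Col1a1, Vim, Dcn and others) were detected on every array, with a summed intensity from 60846 to 68221.

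Probe sequences are shown for a few of the genes on which the results turn, because an array value is the signal of such a short stretch. For Ccl7 and Cxcl12 these are probes beside the one that stands for the gene. They are written 5′ to 3′ as in the deposited table. The probes of Cxcl10, Ccl2, Ccl7 and Cxcl12 shown here are whole, and of both Ccl11 probes the first 30 of 50 bases are shown.
Cxcl10, transcript position 177: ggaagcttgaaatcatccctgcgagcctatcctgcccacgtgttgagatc
Ccl2, transcript position 201: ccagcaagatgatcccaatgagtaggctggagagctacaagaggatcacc
Ccl7, transcript position 280: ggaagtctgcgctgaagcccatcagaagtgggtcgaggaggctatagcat
Cxcl12, transcript position 188: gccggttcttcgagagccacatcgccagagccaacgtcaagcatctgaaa
Ccl11, transcript position 335: cataaacaacctcctctcttgacactaacc
Ccl11, transcript position 880: tcacagaaatttacctgcctctgcctttaa

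Promoters were searched for the motifs that are usually discussed for these genes, and RefSeq entries (assembly GRCm38.p6) were matched for Cxcl1, Cxcl9, Cxcl10, Cxcl12 and Ccl8, 5 of the 10 genes. Letters searched on both strands were GAAANNGAA, a core of the interferon-stimulated response element, and GGGANNTNC, an NF-kB-like motif. TATAAA was searched on the strand of the gene. Windows ran from 250 bases before the transcription start to 50 after it. Among all 32851 promoters, 8.56% held the interferon letters, 15.1% the NF-kB-like letters and 8.32% TATAAA.

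The 250 bases before the start are shown for the 3 CXC genes with a match, on the strand of each gene, with matched letters in capitals.
Cxcl10, chr5:92348890-92349139, minus strand: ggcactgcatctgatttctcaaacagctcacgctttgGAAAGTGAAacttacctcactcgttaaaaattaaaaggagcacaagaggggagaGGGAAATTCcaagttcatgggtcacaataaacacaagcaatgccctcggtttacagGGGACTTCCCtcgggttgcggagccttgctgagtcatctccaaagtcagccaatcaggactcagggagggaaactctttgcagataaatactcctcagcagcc
Cxcl9, chr5:92328080-92328329, minus strand: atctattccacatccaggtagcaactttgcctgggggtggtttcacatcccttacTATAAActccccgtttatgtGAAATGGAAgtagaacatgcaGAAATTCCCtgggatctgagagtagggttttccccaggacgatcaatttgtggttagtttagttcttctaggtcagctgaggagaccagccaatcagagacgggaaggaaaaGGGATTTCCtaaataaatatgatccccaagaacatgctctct
Cxcl1, chr5:90890995-90891244, plus strand: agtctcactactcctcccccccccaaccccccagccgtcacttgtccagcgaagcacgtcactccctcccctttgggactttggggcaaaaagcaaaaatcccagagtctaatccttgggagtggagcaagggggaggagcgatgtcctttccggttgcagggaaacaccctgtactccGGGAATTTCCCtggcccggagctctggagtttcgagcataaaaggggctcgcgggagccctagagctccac
Both Cxcl10 and Cxcl9 held the interferon letters, at -213 and -175 from the start. Cxcl10 had NF-kB-like letters at -159 and at -103, the latter overlapping a match on the other strand at -102. Cxcl9 had NF-kB-like letters at -154 and -42, and TATAAA at -195. Cxcl1 held only the NF-kB-like letters, at -71, overlapping a match on the other strand at -69. Cxcl12 had none of the 3 motifs, and Ccl8 had TATAAA at -32 and no other. A match describes the letters in the window and is not a mapped site.

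Most of the chemokines were brightest in parental MEFs. Of the 8 genes, 6 had their highest normalized signal on the parental array, while Cxcl1 peaked in Cre + WT MEFs and Ccl11 in Cre + dCDK MEFs. How many of all genes were highest on the parental array was not counted. The 6 include Cxcl10, chosen for its low level with TAT-Cre, and Cxcl9, analysed only through the parental array. They also include Cxcl12, whose probe at position 485 was not highest in parental MEFs. Of the 6 genes detected on every TAT-Cre array, 4 had their lowest signal in Cre + dCDK MEFs and 2, Ccl7 and Ccl11, in Rb-deleted MEFs. The 4 include Cxcl12 by its probe at position 2871 alone. Its probes at positions 188 and 485 were lowest in Rb-deleted MEFs. How many of all genes were lowest in Cre + dCDK MEFs was not counted. Cxcl10 was not detected in Cre + dCDK MEFs, and Cxcl9 on none of the TAT-Cre arrays, which leaves them without an order there. Ordering the 4 arrays for each gene by normalized value gave 24 steps between neighbouring arrays, of which 19 exceeded 2 bead standard errors. Because the arrays were ordered by value, every step is a drop by construction. The same count over all genes was not made. The 19 include steps of Cxcl9 and Cxcl10 down to an array that did not detect the probe. They also include every step of Cxcl12 by its probe at position 2871, whereas its probes at positions 188 and 485 ordered the arrays differently. The bead standard error is the standard error of the mean over the beads of a probe on 1 array, 32 to 59 beads for these probes. It covers error within an array only, and no replicate cultures were available, so no test was made and the number of arrays limits the precision.

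**Figure D1:**
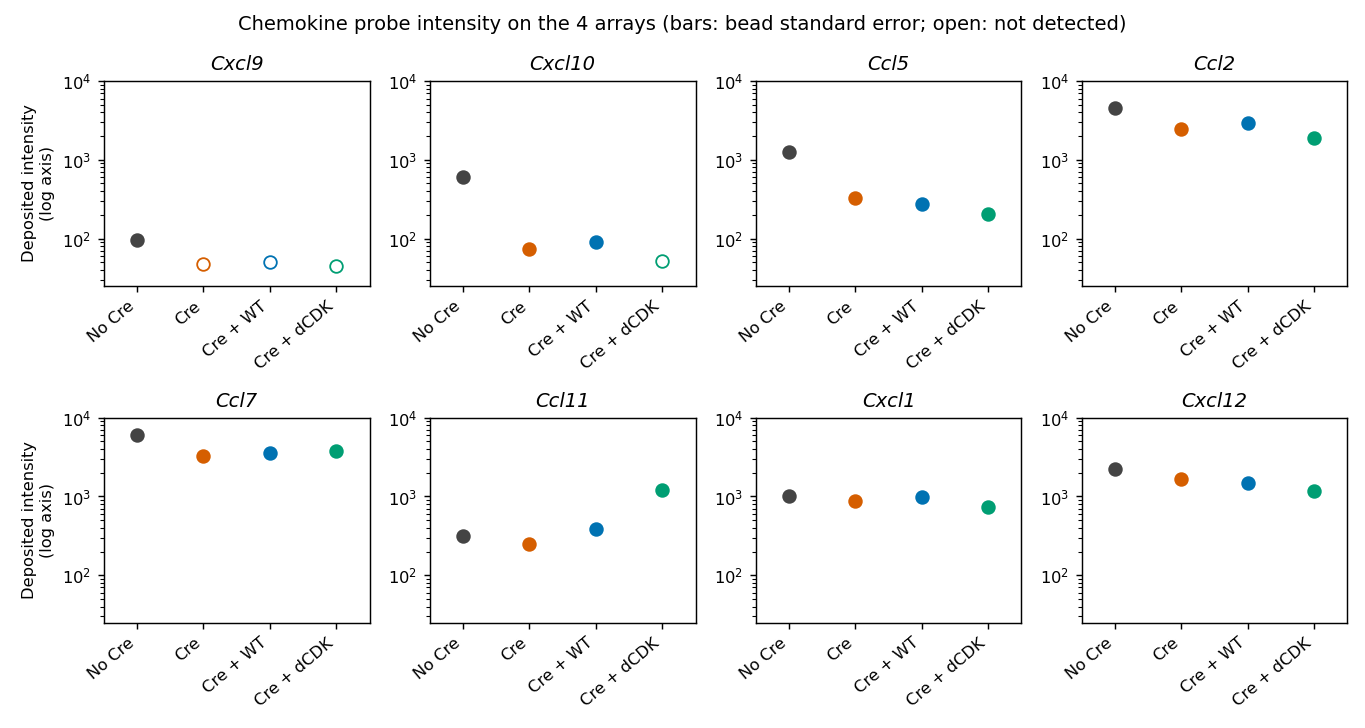
Deposited intensity (vertical log axis, arbitrary units) of the probe that stands for each of the 8 chemokine genes on the 4 arrays, with bars for the bead standard error that are mostly smaller than the points. Open points are not detected; Cxcl10 goes from 605 on the No Cre array to 52.0 on the Cre + dCDK array, whereas Ccl11 goes from 314 to 1221.

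Ratios were taken between background-corrected and quantile-normalized log2 values, and 1.6-fold, the filter of the study's methods, was used to count genes. Against parental MEFs, 5 of the 8 chemokines were lower past 1.6-fold in Rb-deleted MEFs and none was higher, where 2.98% of all genes were lower and 2.14% higher. The median log2 ratio of the 8 genes was -0.85, beside 0.02 over all genes, and ratios ranged from -3.47 to -0.16. In Cre + WT MEFs 4 were lower (2.46% of all genes) and 0 higher (0.888%), with a median of -0.69 beside 0.01. In Cre + dCDK MEFs 5 were lower (3.3% of all genes) and 1 higher (2.58%), with a median of -1.05 beside -0.01. These percentages count every fitted ratio, also where the dim array did not detect the probe. Cxcl9, Cxcl10 and Ccl5 were the 3 genes past 1.6-fold on all 3 TAT-Cre arrays. Of these, Cxcl10 was chosen for its low level there. Cxcl9 was analysed only through its detection in parental MEFs, so its low ratios follow in part from the filter. Both are in the counts and medians above. Cxcl12 counts as lower in Cre + dCDK MEFs by its probe at position 2871 alone. As a mean over probes, 4 genes were lower there. The share of all genes past 1.6-fold on all 3 arrays was not counted. These 3 comparisons share the parental array and are not independent of each other.

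Between the TAT-Cre arrays fewer chemokines passed 1.6-fold. Cre + WT against Rb-deleted MEFs had 1 gene higher, Ccl11 (0.539% of all genes), and 0 lower (0.484%), with a median of 0.16 beside -0.02. Cre + dCDK against Rb-deleted MEFs had Ccl11 higher (2.31% of all genes) and 2 genes lower, Cxcl10 and Ccl5 (1.95%), with a median of -0.29 beside -0.03. Cre + dCDK against Cre + WT MEFs, the comparison that sets a phospho-mutant Rb beside the wild type, had Ccl11 higher (0.84% of all genes) and Cxcl10 lower (1.01%). The median of the 8 genes there was -0.36 beside -0.01, and 6 of the 8 ratios were below 0. The 6 include Cxcl9, detected on neither array, and Cxcl10, not detected in Cre + dCDK MEFs. Cxcl12 is also among them, though its probes at positions 188 and 485 gave 0.07 and -0.01. The share of all genes below 0 was not counted.

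**Figure D2:**
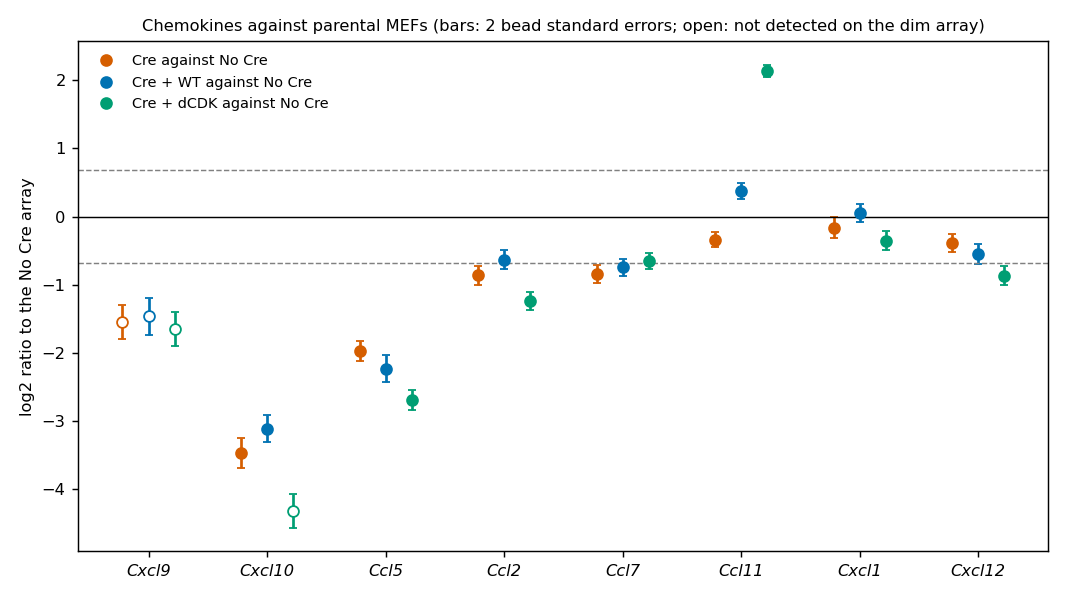
Log2 ratio of each chemokine to the No Cre array (vertical axis) for the 3 TAT-Cre arrays, with bars of 2 bead standard errors and dashed lines at 1.6-fold. Cxcl10 lies lowest, from -4.32 to -3.11, Ccl11 reaches 2.14 with Cre + dCDK, and open points mark probes not detected on the TAT-Cre array.

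Cxcl10 (chromosome 5) encodes a ligand of Cxcr3 that attracts activated T cells and NK cells. Its probe at position 177 had intensities of 605 in parental, 74.0 in Rb-deleted, 90.7 in Cre + WT and 52.0 in Cre + dCDK MEFs, the last not detected (detection p-value 0.0288). The parental array stood far above the others, and the 3 TAT-Cre arrays lay close to background. Log2 ratios to parental were -3.47 in Rb-deleted MEFs (bead standard error 0.11) and -3.11 in Cre + WT MEFs (0.10), or 11.1-fold and 8.63-fold lower, and with an offset of 50 they were -2.81 and -2.59. In Cre + dCDK MEFs, where the probe was not detected, the ratio at this background correction was a bound of at least 17.8-fold lower. The log2 ratio there was -3.49 without background correction and -3.26 with an offset of 50, both smaller than that bound. Among the 12616 genes it ranked lowest in Rb-deleted and in Cre + dCDK MEFs and 2nd lowest in Cre + WT MEFs, which is how the gene came to be chosen.

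Among the TAT-Cre arrays, Cxcl10 was highest with Cre + WT. It exceeded Rb-deleted MEFs by 0.36 (0.13), within 1.6-fold. With the background correction used here, Cre + dCDK MEFs were at least 1.61-fold below Rb-deleted and at least 2.07-fold below Cre + WT MEFs. Neither bound held under other corrections. Without background correction the log2 differences were -0.52 and -0.78, and with an offset of 50 they were -0.45 and -0.67, of which only -0.78 is past 1.6-fold. A Cxcl10 probe at position 745 was not above background on any array, with intensities from 34.3 to 41.1.

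Cxcl9 (chromosome 5) encodes another Cxcr3 ligand and lies close to Cxcl10 in the RefSeq gene order, with Art3 between them. The Cxcl9 probe at position 971 had an intensity of 96.3 in parental MEFs, 47.3 in Rb-deleted, 50.9 in Cre + WT and 45.2 in Cre + dCDK MEFs. It was detected on the parental array alone, so the TAT-Cre arrays give bounds, which at this background correction were at least 2.35-fold, 2.16-fold and 2.27-fold lower, in the same order. The log2 ratios were between -1.07 and -0.94 without background correction and -0.85, -0.81 and -0.89 with an offset of 50, smaller than these bounds and still past 1.6-fold. Cxcl11, which shares the receptor, was not detected on any array. No difference among the TAT-Cre arrays was detectable for Cxcl9.

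Ccl5 (chromosome 11), or Rantes, recruits T cells and monocytes. Its intensities were 1262 in parental, 329 in Rb-deleted, 276 in Cre + WT and 204 in Cre + dCDK MEFs. Every TAT-Cre array was well detected and well below parental MEFs, with log2 ratios of -1.97 (0.07), -2.23 (0.10) and -2.69 (0.08). Unlike Cxcl10, Ccl5 was slightly lower with Cre + WT than in Rb-deleted MEFs, by a log2 ratio of -0.27 (0.11). Cre + dCDK MEFs were 1.65-fold below Rb-deleted MEFs, with a log2 ratio of -0.73 (0.08), which came within 1.6-fold without background correction (-0.66) and with an offset of 50 (-0.63). The difference from Cre + WT MEFs was -0.46 (0.11).

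Ccl2 and Ccl7 encode monocyte chemoattractant proteins that act through Ccr2, and they lie side by side on chromosome 11, followed by Ccl11, Ccl12 and Ccl8. Ccl2 had intensities of 4513 in parental, 2471 in Rb-deleted, 2901 in Cre + WT and 1873 in Cre + dCDK MEFs. All arrays were bright, and the 4 values were separated by more than 2 bead standard errors at each step. Log2 ratios to parental were -0.86 (0.07), -0.63 (0.07) and -1.24 (0.07), of which the Cre + WT value is just within 1.6-fold. Cre + dCDK MEFs lay 0.61 below Cre + WT MEFs on the log2 scale, a ratio of -0.61 (0.06).

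Ccl7 had intensities of 6090 in parental, 3292 in Rb-deleted, 3532 in Cre + WT and 3791 in Cre + dCDK MEFs by the probe at position 460. Its log2 ratios to parental were -0.84 (0.07), -0.74 (0.06) and -0.65 (0.06), so that the Cre + dCDK value fell just within 1.6-fold. By this probe Cre + WT MEFs did not differ from Rb-deleted or from Cre + dCDK MEFs beyond 2 bead standard errors, whereas the probe at 280 put them 0.17 (0.06) above Rb-deleted MEFs. The probe at position 280 gave -0.78, -0.62 and -0.55, and the probes' ratios differed by 0.13 or less. In contrast to Ccl2, its neighbour, Ccl7 was not lowest with Cre + dCDK: the difference from Cre + WT MEFs was 0.10 (0.05) for Ccl7 and -0.61 for Ccl2.

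Ccl11 (chromosome 11), or eotaxin, attracts eosinophils through Ccr3. The probe at position 335 had intensities of 314 in parental, 246 in Rb-deleted, 386 in Cre + WT and 1221 in Cre + dCDK MEFs. The Cre + dCDK array stood apart on the high side, and Rb-deleted MEFs were lowest. Log2 ratios to parental were -0.34 (0.06) in Rb-deleted, 0.38 (0.06) in Cre + WT and 2.14 (0.05) in Cre + dCDK MEFs, the last ranking 6th highest of all genes. Cre + dCDK exceeded Cre + WT MEFs by 1.76 (0.06), or 3.39-fold, the 3rd highest ratio of that comparison, and the gene was chosen for this difference.

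The Ccl11 probe at position 880, a separate measurement on the same RNA, had intensities of 99.1, 93.1, 134 and 328 in the same order. It gave the same ranking of the arrays, with Cre + dCDK MEFs 1.52 (0.08) above Cre + WT and 2.07 (0.08) above parental MEFs. Its ratio in Rb-deleted MEFs, -0.09 (0.09), was within 2 bead standard errors of 0. Cre + WT MEFs were 0.71 (0.06) above Rb-deleted MEFs by the probe at 335 and 0.64 (0.09) by the probe at 880. The first value, 1.64-fold, passed the threshold, and it no longer did so without background correction (0.66), with an offset of 50 (0.64) or as a mean over both probes (0.68, just under the exact threshold).

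**Figure D3:**
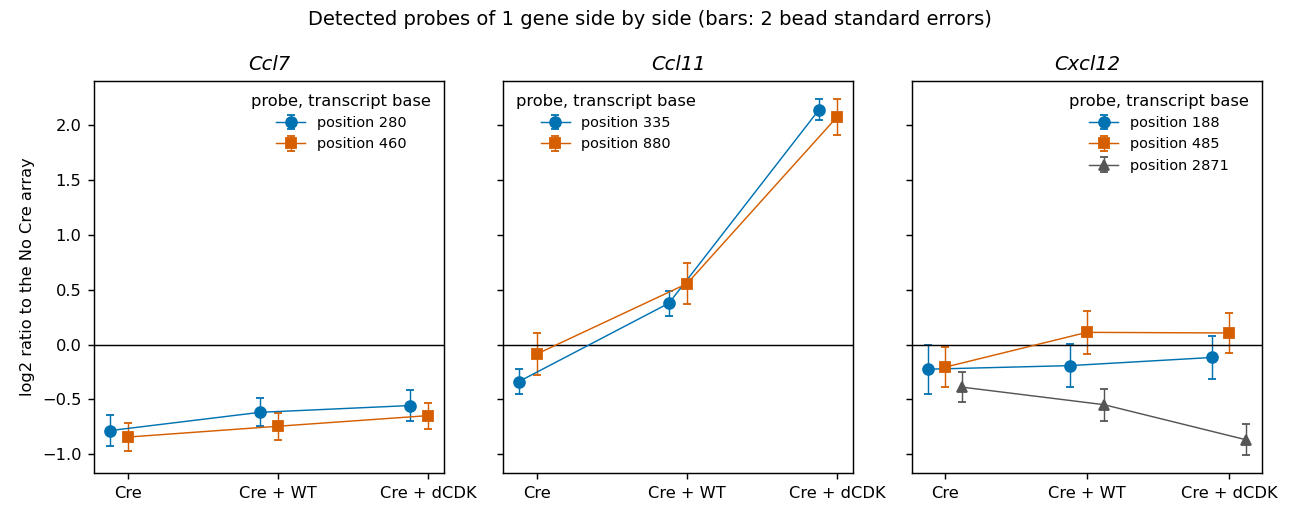
Log2 ratio to the No Cre array (vertical axis) for every detected probe of Ccl7, Ccl11 and Cxcl12 on the 3 TAT-Cre arrays, with bars of 2 bead standard errors and lines joining the values of a probe. Probes of Ccl7 and of Ccl11 put the 3 arrays in the same order, though those of Ccl11 gave -0.34 and -0.09 with Cre. Cxcl12 at position 2871 goes down to -0.87 with Cre + dCDK, whereas the probes at 188 and 485 stay between -0.23 and 0.11.

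Cxcl1 (chromosome 5) encodes a neutrophil attractant that binds Cxcr2, and in the RefSeq order it lies between Cxcl15 and Cxcl2. Its intensities were 1010.0 in parental, 868 in Rb-deleted, 993 in Cre + WT and 736 in Cre + dCDK MEFs. Parental and Cre + WT MEFs were alike within 2 bead standard errors, with a log2 ratio of 0.05 (0.07), and the sign of this ratio turned to -0.03 without normalization between arrays. Ratios to parental were -0.16 (0.08) in Rb-deleted and -0.35 (0.07) in Cre + dCDK MEFs. Cre + dCDK against Cre + WT MEFs gave -0.40 (0.06). No comparison of Cxcl1 passed 1.6-fold, in contrast to the Cxcr3 ligands on the same chromosome.

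Cxcl12 (chromosome 6), the ligand of Cxcr4, holds hematopoietic progenitors and lymphocytes near stromal cells. It had 5 probes, of which 3 were detected, and these differed from each other. The probe that stands for the gene, at position 2871 of its own reference transcript, had intensities of 2220.2 in parental, 1651 in Rb-deleted, 1481 in Cre + WT and 1160 in Cre + dCDK MEFs. Its log2 ratios to parental were -0.39 (0.07), -0.55 (0.07) and -0.87 (0.07), the last 1.82-fold lower.

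The Cxcl12 probe at position 188, in the coding stretch printed above, had intensities of 293, 247, 252 and 260 in the same order, and none of its ratios passed 1.6-fold. The probe at position 485, on another reference transcript of Cxcl12, had 299, 256, 310 and 304. In Cre + dCDK MEFs the log2 ratio to parental was -0.12 at 188 and 0.11 at 485, which exceeded the ratio at 2871 by 0.75 (0.12) and 0.97 (0.11). As a mean over the 3 probes, Cxcl12 had a ratio of -0.29 in Cre + dCDK MEFs and was not past 1.6-fold. The other 2 probes, at 1724 and 2723, were not above background on any array.

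Genes whose profile over the 4 arrays was most like that of Cxcl10 were found by the Euclidean distance between normalized log2 values, each gene centred on its own mean, with the members left out. The nearest were Ifit3 (distance 0.61), Gbp3 (0.79), LOC100048346 (0.82), Ifi47 (0.83) and LOC667370 (0.89). Ifit3, an interferon-induced antiviral gene, had intensities of 3548, 537, 569 and 194 in parental, Rb-deleted, Cre + WT and Cre + dCDK MEFs. Gbp3, an interferon-induced GTPase, had 798, 164, 172 and 85.4. Both had the parental array highest and the Cre + dCDK array lowest. They were picked for their likeness to Cxcl10, so this order follows from that choice and is no separate evidence. The likenesses rest on 4 arrays. Each distance includes the Cre + dCDK value of Cxcl10, which was not detected and moved with the background correction.

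The genes most like Ccl11 were Gzme (0.34), LOC100048554 (0.40), Lce1g (0.44), Ppbp (0.47) and A030004J04Rik (0.55). LOC100048554 is annotated in the array table as similar to monocyte chemoattractant protein-2, a synonym that RefSeq gives for Ccl8. It had intensities of 450 in parental, 245 in Rb-deleted, 461 in Cre + WT and 1406 in Cre + dCDK MEFs, with a log2 difference of 1.69 between Cre + dCDK and Cre + WT MEFs. Ppbp encodes the precursor of a CXC chemokine, stored in platelets, and had 102, 71.1, 95.5 and 238, with a difference of 1.64. In both the Cre + dCDK array was highest and the Rb-deleted array lowest. Gzme, Lce1g and A030004J04Rik were detected on the Cre + dCDK array alone and were analysed only through it, so their distances rest on undetected values.

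Other chemokine ligands were measured beside the 8 genes, and 13 of them were analysed. In this and the following lists, a gene whose probe was not detected on the dim array counts by its bound. By that rule 2.64%, 2.01% and 2.85% of all genes were lower than in parental MEFs in Rb-deleted, Cre + WT and Cre + dCDK MEFs, and 1.86%, 0.769% and 2.22% were higher. Between Cre + dCDK and Cre + WT MEFs 0.745% were higher and 0.848% lower. By this rule the counts of the 8 chemokines stay as given. Of the 13 ligands, 5 were lower and 0 higher in Rb-deleted, 4 lower and 0 higher in Cre + WT, and 4 lower and 2 higher in Cre + dCDK MEFs, with medians of -0.54, -0.38 and -0.48. Ccl4, a CC chemokine made by activated leukocytes, had intensities of 495 in parental, 159 in Rb-deleted, 108 in Cre + WT and 94.8 in Cre + dCDK MEFs. Ccl9, which lies next to Ccl5, had 578, 181, 129 and 175, and Cxcl15, next to Cxcl1, had 330, 138, 177 and 129. All 3 had the parental array highest. The 2 ligands higher in Cre + dCDK MEFs were Ppbp and Cxcl14, at log2 ratios of 1.51 and 0.74.

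Chemokine receptors were sparse, with 5 genes detected. Cx3cr1, the fractalkine receptor of monocytes, had intensities of 95.5, 57.4, 50.4 and 56.7, the third not detected, and was the receptor lower past 1.6-fold on each TAT-Cre array. No receptor was higher past 1.6-fold against parental MEFs, and Cxcr6 was higher in Cre + dCDK than in Cre + WT MEFs by 0.94. Cxcr3 and Ccr3, the receptors of Cxcl10 and Ccl11, were not detected on any array.

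Of the 16 interferon signalling genes analysed, 6 were lower in Rb-deleted, 6 in Cre + WT and 7 in Cre + dCDK MEFs than in parental MEFs, and 0 were higher. Irf7, a transcription factor that amplifies interferon responses, had intensities of 372, 123, 118 and 58.6 in parental, Rb-deleted, Cre + WT and Cre + dCDK MEFs. Irf7 was highest in parental and lowest in Cre + dCDK MEFs. Cxcl10 was also highest in parental MEFs and was not detected in Cre + dCDK MEFs. List medians were -0.44, -0.40 and -0.52 beside all-gene medians near 0, while Irf3 and the interferon-gamma receptor subunits stayed within 1.6-fold. Between Cre + dCDK and Cre + WT MEFs, 5 of the 16 were lower, among them Usp18 (-1.77), Irf7 (-1.44) and Stat2 (-1.10).

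A list of interferon-induced genes, 10 of them analysed besides Cxcl9 and Cxcl10, was read on the same arrays. On each TAT-Cre array 9 of the 10 were lower past 1.6-fold, and the remaining gene, Mx1, was detected in parental MEFs alone, with a bound under 1.6-fold. Its medians were -2.27 in Rb-deleted, -2.40 in Cre + WT and -3.15 in Cre + dCDK MEFs. Between Cre + dCDK and Cre + WT MEFs 5 of the 10 were lower and 0 higher, with a median of -0.74, and Oasl2 and Ifit3 had -1.73 and -1.65. This list was chosen with the low interferon-induced genes of these arrays known and is no independent evidence of their direction.

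Of 26 NF-kB signalling genes analysed, 4, 4 and 7 were lower in Rb-deleted, Cre + WT and Cre + dCDK MEFs and 0 were higher, with medians of -0.30, -0.21 and -0.34. The Toll-like receptor gene Tlr2 had log2 ratios of -1.37, -1.29 and -1.18, and the NF-kB inhibitor gene Tnfaip3 had -1.30, -0.93 and -1.17. Rela, which encodes an NF-kB subunit, stayed at -0.40, -0.39 and -0.33. Between Cre + dCDK and Cre + WT MEFs 0 of the 26 passed 1.6-fold in either direction.

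Of 12 NF-kB-induced genes other than chemokines, 3, 1 and 4 were lower and 0, 1 and 1 higher against parental MEFs. Vcam1, an adhesion molecule for leukocytes, had ratios between -1.01 and -0.94. Saa3, an acute-phase protein gene, went the other way, at 0.58, 0.96 and 1.18. List medians were -0.43, -0.37 and -0.40.

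The list for eotaxin induction by interleukin-4 and interleukin-13 holds these cytokines, their receptors, Stat6, Tslp, Il33, Il1rl1, Socs2, Arg1 and Retnla. Of 10 analysed, 0 were higher against parental MEFs on any array, and 1, Tslp, was lower in Cre + dCDK MEFs at -0.73. Il4ra and Stat6 differed by 0.10 and -0.16 between Cre + dCDK and Cre + WT MEFs. These are transcript levels, and the part of this pathway in the Ccl11 level was not tested.

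**Figure D4:**
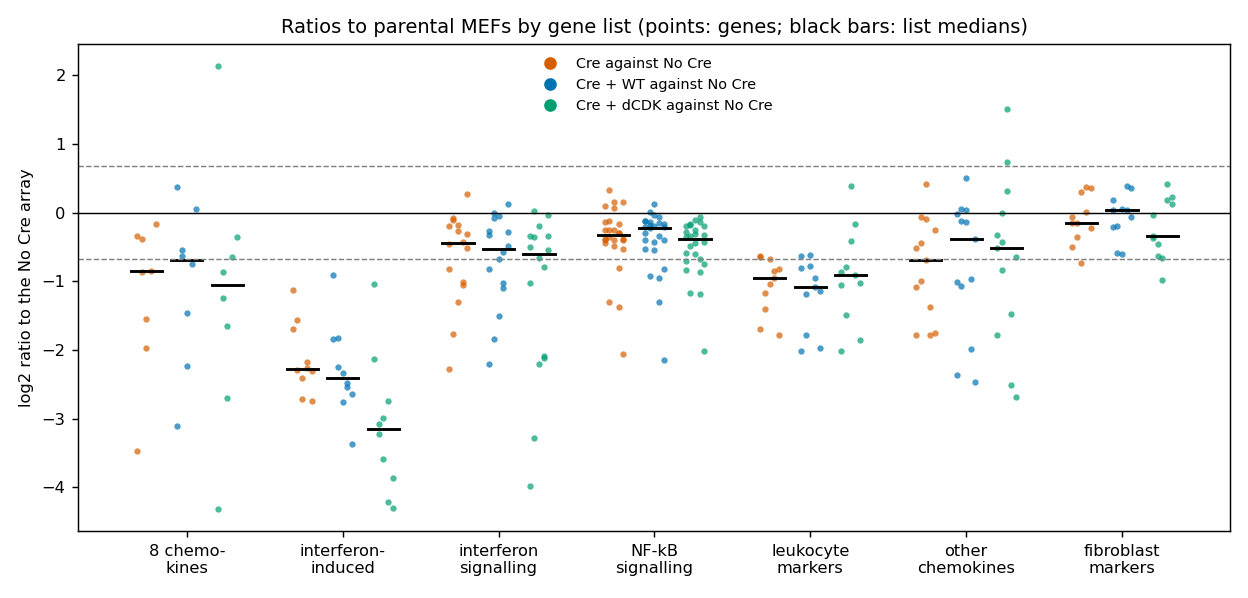
Log2 ratio to the No Cre array (vertical axis) for the genes of each list, with a point for each gene, black bars for medians of the fitted ratios, undetected probes included, and dashed lines at 1.6-fold. The interferon-induced genes, plotted without Cxcl9 and Cxcl10, lie lowest with medians from -3.15 to -2.27, and the fibroblast markers have medians from -0.34 to 0.03.

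Leukocyte markers were lower on the same arrays as the chemokines. Of 14 listed, 11 were detected, each on all 4 arrays, and 8, 9 and 8 of them were lower past 1.6-fold in Rb-deleted, Cre + WT and Cre + dCDK MEFs than in parental MEFs. Their summed intensity was 11113 in parental, 5624 in Rb-deleted, 5144 in Cre + WT and 6534 in Cre + dCDK MEFs, and the medians of their log2 ratios were -0.94, -1.08 and -0.90. Emr1, a macrophage surface marker, had intensities of 773, 247, 203 and 198, while the defining markers Ptprc, Itgam and Fcer1g were not detected on any array. In bulk RNA, fewer cells of a type and less RNA per cell cannot be told apart, and the part of these cells in the levels of Ccl5, Cxcl9, Cxcl10, Ccl2 and Ccl7 was not tested. Between Cre + dCDK and Cre + WT MEFs, where Ccl11 was higher, 2 of the 11 markers were higher, Cd53 (1.00) and Lyz2 (0.78), and 0 were lower, and their part in the Ccl11 level was not tested either.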

How the data were processed

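RNA of 4 MEF cultures, 1 per condition, was measured on Illumina MouseWG-6 BeadChips. Intensities deposited by the authors are means over the beads of a probe, not normalized between arrays, with bead standard errors and bead numbers. The deposited table also gives a detection p-value per probe and array. The scanner software and its settings were not given in the sources used here. Samples were assigned by their titles. Genome positions in the table come from mixed builds, so chromosomes and transcript positions are given. Of 40 symbols turned into dates, 34 were restored through a RefSeq table.

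Background was corrected with limma 3.58.1 (R 4.3.3) by normexp, with parameters inferred from detection p-values and an offset of 16, followed by quantile normalization and log2. The offset pulls the ratios of dim probes toward 0. Probes were kept if any array had a detection p-value below 0.01, 17746 in all, and the brightest stood for its gene. A gene was counted as higher or lower past 1.6-fold (0.68 on the log2 scale). The bead standard error was carried through each array's map from intensity to normalized value and combined over both arrays of a ratio. Where the dimmer array did not detect the probe, the fold is a lower bound against the higher of its own value and the lowest detected value there. Python 3.11.15, numpy 2.4.6 and pandas 2.3.3 were used for the rest, and the calculation was tested on simulated data.

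All probes of the members, the 5 genes most like Cxcl10 and like Ccl11, and up to 6 genes past the fold per list and comparison were to be named. Genes named within the fold were picked from the lists after their values were seen. Members and lists were chosen with earlier results of these data known. Some genes of the lists are not reported here. Alternatives changed the background correction, offset, normalization, detection filter, probe rule and fold. No p-value was computed, since 1 array per condition leaves no replicate spread.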

Additional observations from a re-analysis of the deposited data

How the results depend on the processing

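Counts of chemokines past the fold were recomputed under 9 alternatives, and 93 of 108 counts came within 1.5 times the reported one. Requiring detection on all 4 arrays left out Cxcl9 and Cxcl10 and gave 3 instead of 5 genes lower in Rb-deleted MEFs, 2 instead of 4 in Cre + WT MEFs and 3 instead of 5 in Cre + dCDK MEFs, all against parental. It also gave 1 instead of 2 lower genes for Cre + dCDK against Rb-deleted MEFs, and 0 instead of 1 for Cre + dCDK against Cre + WT MEFs. At 2-fold, 3 genes were lower in Rb-deleted than in parental MEFs, and for Cre + WT and Cre + dCDK against Rb-deleted MEFs the counts of 1 higher and 2 lower became 0 and 0. Without background correction these same counts were 0 and 0, and with an offset of 50 they were 0 and 0, with 0 lower for Cre + dCDK against Cre + WT MEFs. The mean over probes gave 0 higher for Cre + WT against Rb-deleted MEFs, and at 1.5-fold 2 genes were lower for Cre + dCDK against Cre + WT MEFs. The cause was not tested beyond the construction of each alternative.

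Of 324 log2 ratios compared for single genes, 0 changed sign past the fold. Both alternatives of the detection filter repeated the main ratio, as did the mean over probes for genes with 1 detected probe. Those ratios could not change sign, so the count says nothing about them. Signal over background limited Cxcl9 and Cxcl10: without background correction the ratio to parental of Cxcl10 was -2.97 in Rb-deleted, -2.71 in Cre + WT and -3.49 in Cre + dCDK MEFs, and with an offset of 50 it was -2.81, -2.59 and -3.26. Ccl11 against Cre + WT MEFs kept between 1.64 and 1.76 in Cre + dCDK MEFs over all alternatives. No paired analysis was possible because each condition has 1 array, and for the same reason no replicate could be left out.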

Other observations

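Markers of other cell types were near background on these arrays. Of 5 mast cell genes with a probe, Kit was the only one detected, on 2 arrays, with intensities from 45.4 to 57.1. Of the lymphocyte genes, Cd3e was detected on all 4 arrays, at 58.3 to 66.2, and Cd2 on none. None of the 5 endothelial genes (Pecam1, Cdh5, Kdr, Tek and Tie1) was detected on any array. The 3 epithelial genes with a probe, Cdh1, Krt8 and Krt18, summed to intensities between 206 and 249. No gene of these lists passed 1.6-fold in any comparison.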
